A study of Mus musculus with 13 samples.

Results

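The membranous nephropathy (MN) autoantigen genes are 10 genes whose proteins are reported as known or putative target antigens in MN, *Thsd7a*, *Pla2r1*, *Pcdh7*, *Cntn1*, *Ntng1*, *Htra1*, *Sema3b*, *Nell1*, *Ext1* and *Ext2*. They were chosen by name and not by any measured value, and all 10 were among the 35967 gene symbols of the expression table. Glomeruli, the filtering tufts of the kidney, came from wild-type BALB/c mice that had received 2 mg of rabbit IgG into the peritoneal cavity. The 5 control mice were given preimmune rabbit IgG and were killed at day 1 or day 5, combined into 1 group without their day being named. The MN mice were given rabbit IgG against THSD7A and were killed at day 1 (n = 4) or day 5 (n = 4). According to the methods, the MN model was studied in males, and an age of 14 to 15 weeks is given for its induction in the knockout lines and their littermates. The disease was set off by passive transfer of rabbit antibody, and no pooling of mice is named.

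In MN, antibodies meet an antigen on or near the podocyte, the epithelial cell that covers the outside of the glomerular capillary, and immune complexes build up beneath its foot processes. The antigens fall into a few kinds. THSD7A and PLA2R1 are large transmembrane proteins and the classical podocyte antigens of patients. Protocadherin 7 is a cell adhesion molecule of the cadherin family. Contactin 1 and netrin-G1 are adhesion proteins anchored to the membrane by a lipid and best known from neurons. HTRA1 is a secreted serine protease, semaphorin 3B is a secreted guidance factor, and NELL1 is a secreted protein with thrombospondin-like and EGF-like domains. EXT1 and EXT2 form the enzyme complex that elongates heparan sulfate chains, and are found in deposits mainly in patients with systemic autoimmune disease. The comparison asks how the transcripts of these antigens stood in control glomeruli and after antibody binding to a single one of them, THSD7A.

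Values are TPM, each gene's length-scaled share of the transcripts of its library, which can be compared between genes. The read depth behind them is unknown. Genes needed 1 TPM or more in 4 or more of the 13 libraries to be tested, which held for 14322 genes and for 7 of the 10. *Cntn1*, *Ntng1* and *Nell1* fell short. Tests used limma on log2(scaled TPM + 0.5), and fold changes are on that scale, which understates changes of low genes. A gene was called where its Benjamini-Hochberg adjusted p was under 0.05 and its log2 fold change lay beyond 0.5 in either direction. Nothing states that samples shared a litter or cage. The limma p-values set a group difference against the spread between mice within groups. That spread was estimated over all 3 groups and moderated with the help of all tested genes. Spearman correlations between libraries across tested genes lay between 0.971 and 0.988.

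Markers of the expected cells were high. The summed TPM of 12 podocyte markers lay between 7595 and 9937 in control libraries, 7904 and 9867 at day 1 and 8470 and 8681 at day 5. All 9 tubule markers had a positive log2 fold change at day 1, although none was called, and their summed TPM was 394 to 972 in control libraries, 768 to 1352 at day 1 and 563 to 706 at day 5. Between day 5 and day 1 all 9 were negative and 2 were called as lower, *Aqp2* and *Calb1*. Their log2 fold changes were -1.30 and -1.39 (adjusted p = 0.0286 and 0.0313, limma), where 1.81% of all genes tested were called. The leukocyte markers were low, with a summed TPM of at most 15.3 over 5 genes. None of the 7 endothelial, 5 mesangial or 3 tested leukocyte markers was called at either day, with all 7 endothelial and all 3 leukocyte log2 fold changes positive at day 5. Of 3 parietal epithelial markers, *Cldn1*, a tight junction gene, rose at day 5 (log2 fold change 1.08, adjusted p = 0.0036, limma), where 2.42% of all tested genes were called as higher. Of all libraries, control replicate 2 was lowest in summed podocyte markers (7595) and in tubule markers (394), and the changes of the antigen genes that moved most without it are given both ways. From bulk values alone, fewer podocytes and less RNA per podocyte cannot be told apart. The paper reported that podocyte number, counted by DACH1 staining, was unaltered in MN mice of this model. How that count bears on these RNA values was not tested.

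The promoters of a pair of these genes are shown because *Thsd7a* was the antigen bound by the antibody and *Pla2r1* encodes the most frequent antigen of patients. Each runs from 250 bases before to 50 bases after the start of the gene, from RefSeq on GRCm38.p6, read on the minus strand. Capitals mark the GC box GGGCGG and the E-box CANNTG, searched on both strands. The *Thsd7a* promoter lies at chr6:12749204-12749503 and that of *Pla2r1* at chr2:60553259-60553558.
Thsd7a: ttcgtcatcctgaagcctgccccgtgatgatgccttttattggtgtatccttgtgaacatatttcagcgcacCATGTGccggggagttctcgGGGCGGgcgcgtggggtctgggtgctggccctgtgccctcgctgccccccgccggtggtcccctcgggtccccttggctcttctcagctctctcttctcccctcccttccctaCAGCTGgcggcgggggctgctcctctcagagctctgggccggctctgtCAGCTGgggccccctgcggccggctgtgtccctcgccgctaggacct
Pla2r1: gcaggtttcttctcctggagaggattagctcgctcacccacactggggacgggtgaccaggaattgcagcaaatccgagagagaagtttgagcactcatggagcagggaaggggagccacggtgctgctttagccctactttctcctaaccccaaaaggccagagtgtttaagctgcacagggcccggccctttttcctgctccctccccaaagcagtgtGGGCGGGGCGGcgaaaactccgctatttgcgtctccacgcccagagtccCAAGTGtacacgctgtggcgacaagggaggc
*Thsd7a* had 1 GC box and 3 E-boxes in this window and *Pla2r1* had 2 overlapping GC boxes and 1 E-box. Of 32851 promoters of the same length, 35.7% held a GC box and 72.3% an E-box. GC content was 66.7% for *Thsd7a* and 58.7% for *Pla2r1*, against a median of 52.7%. A match describes letters only, and the RNA values do not bear on whether a factor binds there. RefSeq promoters were matched for 8 of the 10 genes.

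In control glomeruli the antigen transcripts spanned from a gene at 0 in 4 of 5 libraries to some of the most abundant of the table. Their order of mean control TPM was *Htra1*, *Thsd7a*, *Ext2*, *Pla2r1*, *Sema3b*, *Ext1*, *Pcdh7*, *Ntng1*, *Cntn1* and *Nell1*. *Htra1* had 328 ± 32.7 TPM (SD, n = 5) and was above *Thsd7a* in every pairing of control libraries. *Thsd7a* (174 ± 34.6, n = 5) and *Ext2* (133 ± 5.78, n = 5) were neighbours whose ranges overlapped, because control replicate 2 was low for *Thsd7a*. *Pla2r1* had 59.6 ± 8.76 TPM (SD, n = 5), below every control value of *Ext2* and above every one of *Sema3b*. *Sema3b* (31.4 ± 4.38, n = 5) and *Ext1* (22.1 ± 2.54, n = 5) again overlapped. *Pcdh7* followed at 1.80 ± 0.697 TPM (SD, n = 5), its highest control value of 2.61 far under the lowest value of *Ext1*, 20.2. Among all gene symbols, *Htra1* ranked 432 by mean control TPM, *Thsd7a* 941, *Ext2* 1368 and *Pla2r1* 3436.

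**Figure D1:**
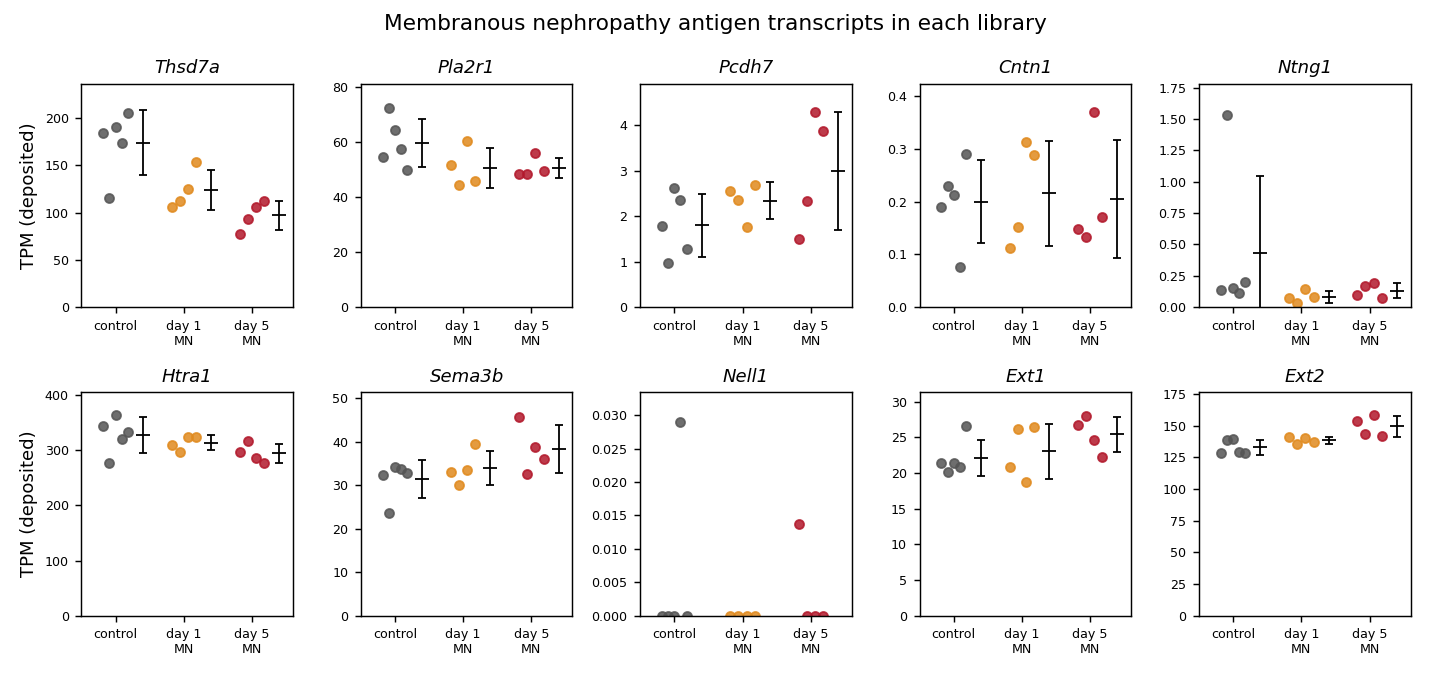
Deposited TPM of the 10 antigen genes in each library (points: 5 control, 4 day 1 MN and 4 day 5 MN mice; black bars: mean ± SD, cut at 0 and left out for *Nell1*), each panel with its own axis from 0. In these unscaled values, day 5 MN libraries sit below all control libraries for *Thsd7a* and above all of them for *Ext2*, and 1 control library stands alone for *Ntng1*.

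*Thsd7a*, which encodes the antigen bound in this model, was the 1 antigen gene called, and it fell at day 5. It lies on chromosome 6 of GRCm39 from 12311609 to 12749439 on the minus strand. Its TPM in the 5 control libraries was 185, 116, 190, 174 and 206. At day 1 it was 106, 112, 126 and 154, and at day 5 it was 77.3, 93.2, 106 and 113. In deposited TPM, day 5 and control libraries did not overlap, whereas 2 of the day 1 libraries lay above control replicate 2. This separation depended on the scaling, since in the scaled TPM that was tested day 5 replicate 4 (111.9) lay just above control replicate 2 (111.3). Against the other 4 controls, day 5 was lower without overlap on both scales. Against control, day 5 gave -0.79 on the log2 scale (standard error 0.16, 95% interval -1.14 to -0.44, adjusted p = 0.0112, limma with Benjamini-Hochberg adjustment), a level 0.578 times that of control. At day 1 it was -0.42 (95% interval -0.78 to -0.07, adjusted p = 0.331, limma), and between day 5 and day 1 it was -0.36 (adjusted p = 0.331, limma). Of all genes tested, 3.21% were called at day 5, 0.789% as lower, and 5.71% were lower without overlap in deposited TPM. At day 1 the share called was 0.0908%, and between the days it was 1.81%. Without control replicate 2 the day 5 log2 fold change was -0.94 (adjusted p = 6.5e-04, limma) and that at day 1 was -0.57 (adjusted p = 0.148, limma). Of all tested genes, 1.31% had a lower log2 fold change than *Thsd7a* at day 5. With the mean of the tubule markers as a covariate, the day 1 value was -0.85 (adjusted p = 0.131, limma) and the day 5 value -0.77 (adjusted p = 0.00206, limma).

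The *Thsd7a* value was set against other podocyte transcripts of the same library, as the log2 difference between *Thsd7a* and the mean of the 12 podocyte markers, among them *Nphs1*, *Synpo* and *Wt1*. This ratio was -0.90, -1.25, -0.89, -0.95 and -0.80 in control libraries. It was -1.38, -1.31, -1.22 and -1.14 at day 1 and -1.86, -1.65, -1.50 and -1.40 at day 5. All day 5 libraries lay below all control libraries, and at day 1 replicates 3 and 4 lay above control replicate 2. The mean was -0.96 ± 0.17 (SD, n = 5) in controls against -1.60 ± 0.20 (SD, n = 4) at day 5, a difference of -0.64 (exact permutation test, both sides, p = 0.0159, adjusted over 2 comparisons 0.0317, smallest possible 0.00794). At day 1 the mean was -1.26 ± 0.10 (SD, n = 4), a difference of -0.31 (exact permutation test, both sides, p = 0.0317, adjusted 0.0317). The day 1 difference lost its side of the threshold in 8 of the 9 tests that each left out 1 library, with exact p up to 0.107, and kept it without control replicate 2 (-0.38, exact p = 0.0286). With the podocyte marker mean as a covariate across all genes, the day 5 log2 fold change of *Thsd7a* was -0.52 (adjusted p = 0.00531, limma). Of the 12 markers themselves, 3 passed on the adjusted p at day 5 and 1 was called, *Plce1*, which encodes a podocyte phospholipase (log2 fold change -0.60, adjusted p = 0.0106, limma). *Synpo*, an actin-associated gene of the foot process, had -0.46 (adjusted p = 0.00197, limma) and *Cd2ap*, a slit diaphragm adaptor, had -0.29 (adjusted p = 0.0117, limma), both under the fold threshold and lower than control without overlap. Of all genes tested at day 5, 6.12% passed on the adjusted p, 0.789% were called as lower and 5.71% were lower without overlap in deposited TPM. *Plce1* was not called without day 5 replicate 1, at -0.497, and the median of the 12 was -0.13 against -0.003 over all genes tested.

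**Figure D2:**
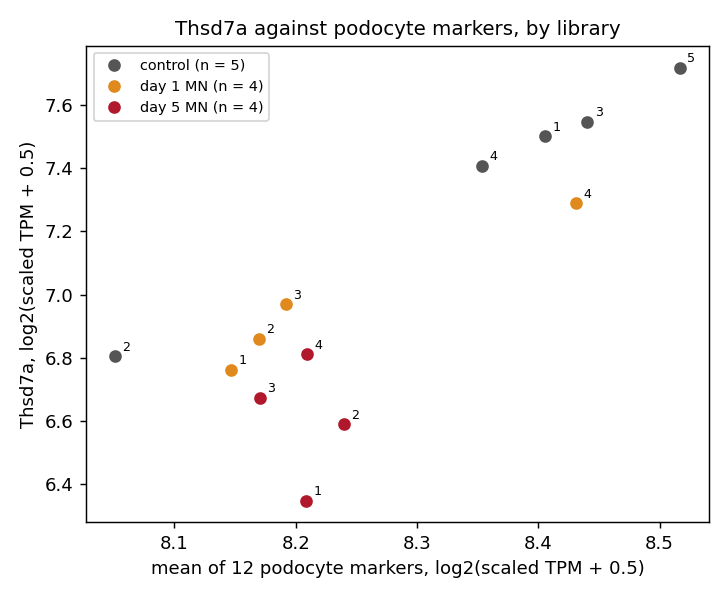
*Thsd7a* against the mean of 12 podocyte markers, both as log2(scaled TPM + 0.5), with 1 point per library and the replicate number beside it. Control replicate 2 has the lowest podocyte markers, and the 4 day 5 MN libraries lie lowest in *Thsd7a* for their marker level.

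*Pla2r1*, a receptor of the mannose receptor family, was readily detected in mouse glomeruli, and bulk values do not show in which of their cells. It lies on chromosome 2 of GRCm39 from 60247887 to 60383654. Control libraries had 54.5, 72.2, 64.2, 57.4 and 49.8 TPM. Day 1 libraries had 51.5, 44.3, 60.4 and 45.8 and day 5 libraries 48.1, 48.1, 55.8 and 49.4. The groups overlapped at both days, and the highest control value came from replicate 2, the library that was lowest for *Thsd7a*. Log2 fold changes were -0.19 at day 1 (95% interval -0.40 to 0.02, adjusted p = 0.442, limma) and -0.20 at day 5 (95% interval -0.41 to 0.01, adjusted p = 0.287, limma). Neither interval reaches -0.5. Without control replicate 2 the value was -0.13 at both days. The ratio of *Thsd7a* to *Pla2r1* TPM was 1.60 in control replicate 2, 2.97 to 4.13 in the other control libraries, 2.06 to 3.36 at day 1 and 1.61 to 2.28 at day 5.

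*Pcdh7*, the adhesion molecule on chromosome 5 from 57875004 to 58290581, was the lowest antigen gene that could be tested. Its TPM was 1.78, 0.961, 2.61, 2.36 and 1.28 in control libraries and 2.56, 2.37, 1.77 and 2.68 at day 1. At day 5 it was 1.49, 2.34, 4.29 and 3.88. Day 5 replicates 3 and 4 were above all other libraries, and replicate 1 was within the control range. The log2 fold change of 0.60 at day 5 did not pass (standard error 0.28, 95% interval 0.004 to 1.20, adjusted p = 0.246, limma), and that at day 1 was 0.39 (adjusted p = 0.592, limma). Without control replicate 2 these were 0.45 and 0.23.

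*Cntn1*, on chromosome 15 from 91948938 to 92240393, and *Ntng1*, on chromosome 3 from 109687356 to 110051327, were low, at a mean control TPM of 0.200 and 0.428. *Cntn1* lay between 0.0755 and 0.291 TPM in control libraries, 0.112 and 0.313 at day 1 and 0.132 and 0.371 at day 5, so that the 3 groups overlapped throughout. *Ntng1* had 1.53 TPM in control replicate 2 and 0.108 to 0.202 in the other 4 control libraries. It lay between 0.0319 and 0.147 at day 1 and between 0.0682 and 0.193 at day 5, in the range of those 4 or below it. Neither gene passed the filter to be tested in the main fit, and with unknown depth no limit of detection can be given.

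Of the secreted antigens, *Htra1*, a protease that acts on extracellular matrix and growth factors, was the most abundant antigen transcript. It lies on chromosome 7 from 130537518 to 130587390. Control libraries had 345, 277, 364, 320 and 334 TPM, day 1 libraries 310, 297, 325 and 324, and day 5 libraries 298, 317, 286 and 277. Control replicate 2 and day 5 replicate 4 shared the lowest level, and the groups overlapped. The log2 fold change was -0.01 at day 1 (95% interval -0.19 to 0.16, adjusted p = 0.972, limma) and -0.11 at day 5 (95% interval -0.29 to 0.06, adjusted p = 0.486, limma). Both intervals lie within the threshold of 0.5 in either direction. Without control replicate 2 the values were -0.08 and -0.18 (adjusted p = 0.685 and 0.132, limma). *Htra1* alone made up 42.5% to 47.7% of the summed TPM of the 10 genes in each library, whereas *Thsd7a* made up 17.8% to 26.4% in control libraries and 11.9% to 17.5% at day 5.

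*Sema3b*, on chromosome 9 from 107474872 to 107486456, had 32.4, 23.7, 34.3, 33.7 and 32.9 TPM in control libraries. It had 33.0, 30.0, 33.5 and 39.4 at day 1 and 45.6, 32.6, 38.9 and 36.1 at day 5. Day 5 replicates 1, 3 and 4 lay above all controls and replicate 2 lay among them. The log2 fold change of 0.32 at day 5 did not pass (95% interval 0.04 to 0.60, adjusted p = 0.185, limma). With the podocyte marker mean as a covariate it was 0.49 with an adjusted p of 0.018 (limma), still under the fold change threshold. At day 1 it was 0.16 (adjusted p = 0.63, limma). Control replicate 2 was again the lowest control library, and without it the values were 0.06 at day 1 and 0.21 at day 5 (adjusted p = 0.872 and 0.287, limma).

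*Nell1*, on chromosome 7 from 49624603 to 50516670, was listed at 0 in 11 of 13 libraries. The exceptions were control replicate 4, at 0.0289 TPM, and day 5 replicate 1, at 0.0138 TPM. It did not pass the filter, so the main fit held no comparison between groups for it.

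The heparan sulfate polymerase genes were both detected in every library, *Ext2* at 4.84 to 7.51 times the TPM of *Ext1*. *Ext2*, on chromosome 2 from 93491373 to 93653003, had 128, 139, 139, 129 and 128 TPM in control libraries. It had 141, 135, 141 and 137 at day 1 and 154, 143, 159 and 142 at day 5. Day 5 libraries were above every control library. In deposited TPM they were also above every day 1 library, but in scaled TPM day 5 replicate 4 (140.8) lay below day 1 replicate 1 (143.2). Against control, day 5 gave 0.20 on the log2 scale (standard error 0.05, 95% interval 0.10 to 0.31, adjusted p = 0.0208, limma with Benjamini-Hochberg adjustment), past the threshold on p and well short of it on fold change, so *Ext2* was not called. Of all genes tested, 6.12% had an adjusted p under 0.05 at day 5 and 5.07% were higher without overlap in deposited TPM. Against day 1, 6.12% were higher without overlap in deposited TPM. The adjusted p passed in 8 of the 13 fits that each left out 1 library (0.0167 to 0.0703). At day 1 the log2 fold change was 0.11 (adjusted p = 0.387, limma). *Ext1*, on chromosome 15 from 52927434 to 53209602, had 21.5, 20.2, 21.4, 20.8 and 26.5 TPM in control libraries. Day 1 libraries had 20.9, 26.2, 18.7 and 26.5 and day 5 libraries 26.7, 28.0, 24.6 and 22.3. Control replicate 5 lay within the day 5 range, and the log2 fold change of 0.23 did not pass (95% interval -0.05 to 0.51, adjusted p = 0.35, limma). At day 1 it was 0.10, and 0.06 without control replicate 2. With 1 library left out, the *Ext1* value at day 5 lay between 0.18 and 0.31 and did not pass (adjusted p = 0.189 to 0.614, limma). The ratio of *Ext2* to *Ext1* TPM lay between 4.84 and 6.87 in control libraries, 5.16 and 7.51 at day 1 and 5.11 and 6.44 at day 5.

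**Figure D3:**
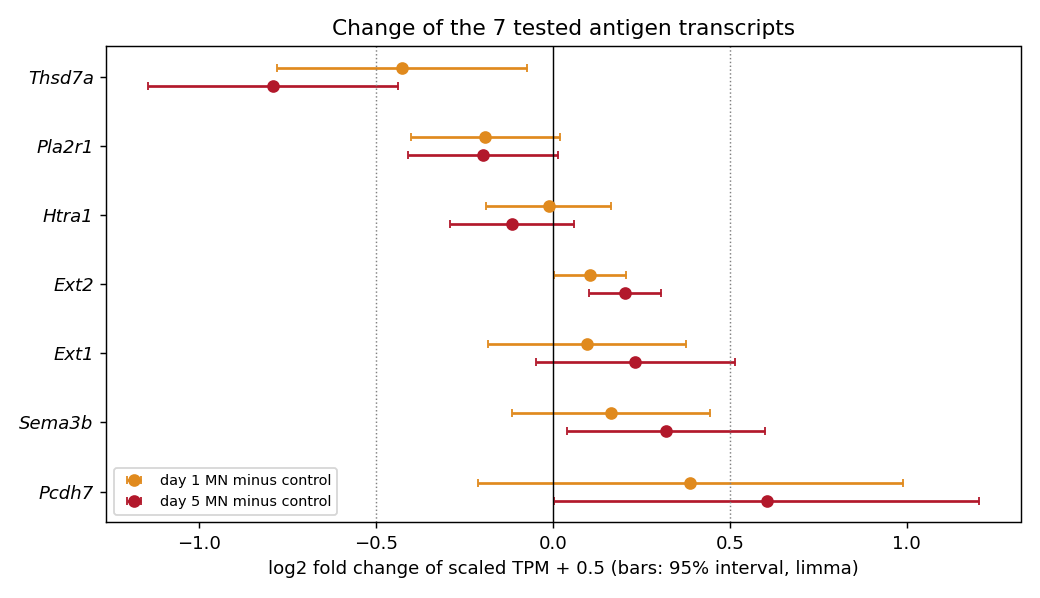
Log2 fold changes of the 7 tested antigen genes on the log2(scaled TPM + 0.5) scale, with 95% intervals from limma (orange: day 1 MN minus control; red: day 5 MN minus control; dotted lines: ± 0.5). The day 5 interval of *Thsd7a* is at -1.14 to -0.44, and those of *Ext2*, *Sema3b* and *Pcdh7* lie above 0. At day 1 that of *Thsd7a* lies below 0 and that of *Ext2* above 0. The intervals are not adjusted for the number of genes tested, and only *Thsd7a* at day 5 was called.

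Both MN groups were compared with the same control libraries, so the days are not independent of each other. Of the 7 tested genes, 4 had a positive log2 fold change at day 1 and 4 at day 5, with medians of 0.10 and 0.20 against -0.003 over all genes tested at each day. None of the 7 was called at day 1 or between day 5 and day 1, and 1 was called at day 5, where 3.21% of all genes tested were called.

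Several of the antigens have a close relative in the genome, and in glomeruli the relative was sometimes the abundant copy. *Nell2*, the paralog of *Nell1*, had 13.4, 11.5, 16.7, 15.3 and 18.7 TPM in control libraries and 16.7, 20.0, 21.2 and 21.5 at day 1. At day 5 it had 35.7, 27.4, 22.3 and 24.2, above every control library. *Nell2* rose at day 5 by 0.87 on the log2 scale (standard error 0.17, adjusted p = 0.00743, limma). At that day 2.42% of all tested genes were called as higher and 5.07% were higher without overlap in deposited TPM. *Ntng2*, the paralog of *Ntng1*, was among the highest transcripts of the family lists, at 304, 276, 312, 356 and 330 TPM in control libraries. It was at 243, 235, 262 and 306 at day 1 and at 175, 205, 253 and 242 at day 5, below every control library. Its log2 fold change of -0.50 with a standard error of 0.10 (adjusted p = 0.0113, limma) was just past the threshold. *Ntng2* fell short of the fold threshold without control replicate 4 or 5 or day 5 replicate 1 or 2 (-0.46, -0.47, -0.42 and -0.48). Of all genes tested at day 5, 0.789% were called as lower and 5.71% were lower without overlap in deposited TPM. *Thsd7b*, the paralog of *Thsd7a*, is given because *Thsd7a* was the bound antigen, lay at 0.164 to 0.803 TPM in control libraries and was not tested.

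**Figure D4:**
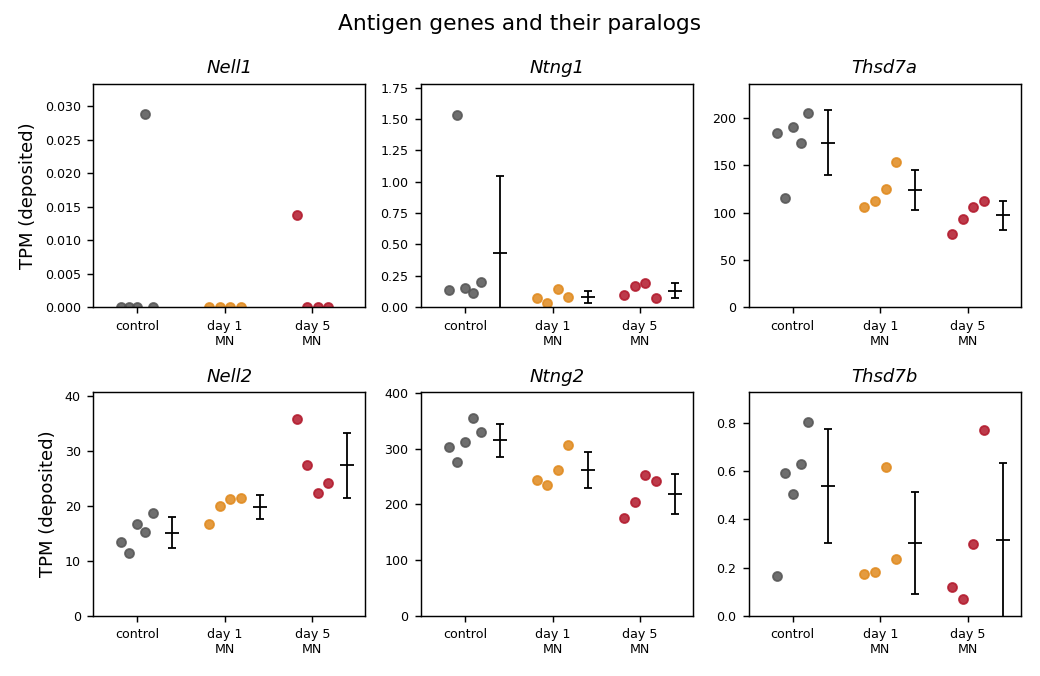
Deposited TPM of *Nell1*, *Ntng1* and *Thsd7a* (top) and of their paralogs *Nell2*, *Ntng2* and *Thsd7b* (bottom) in each library, with mean ± SD in black, cut at 0 and left out for *Nell1*. *Nell2* and *Ntng2* are the abundant copies, whereas for *Thsd7a* it is the antigen gene itself.

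Over the list of 30 paralogs, which also held mannose receptor, class 3 semaphorin, protocadherin, HTRA, EXT-like and contactin genes, 19 were tested. At day 5, 14 had a positive log2 fold change, *Nell2* was called as higher and *Ntng2* as lower, and the median was 0.08. Of all 14322 genes tested at that day, 7062 had a positive log2 fold change and 3.21% were called, with a median of -0.003. None of the 19 paralogs was called at day 1, where 0.0908% of all genes tested were called. *Sema3g*, a secreted class 3 semaphorin, was the highest at 1319 ± 150 TPM (SD, n = 5) in controls against 1119 ± 81.3 (SD, n = 4) at day 5 (log2 fold change -0.20, adjusted p = 0.329, limma).

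The list of 11 partners held the neuropilin and plexin receptors of class 3 semaphorins, the netrin-G1 ligand *Lrrc4c*, the contactin 1 partners *Cntnap1* and *Nfasc*, and the integrin genes *Itga3* and *Itgb1*. Of these, 9 were tested, none was called at day 1, and 1 was called at day 5, *Plxna3*, a plexin coreceptor for semaphorins. *Plxna3* had 14.3, 13.5, 11.2, 16.1 and 15.7 TPM in control libraries, 7.32, 10.1, 14.6 and 10.3 at day 1 and 3.42, 6.63, 7.50 and 10.1 at day 5. Day 5 libraries were below every control library, and the difference was -1.03 on the log2 scale (standard error 0.24, adjusted p = 0.0211, limma). Of all genes tested at day 5, 0.789% were called as lower and 5.71% were lower without overlap in deposited TPM. *Plxna3* was picked from the list by its call. It passed in 10 of the 13 fits that each left out 1 library and lost its call without control replicate 4, day 5 replicate 1 or day 5 replicate 2 (adjusted p = 0.0523, 0.0509 and 0.057, limma). *Itgb1*, the integrin beta 1 chain, had 636 ± 34.8 TPM (SD, n = 5) in controls against 797 ± 64.9 (SD, n = 4) at day 5, with a log2 fold change of 0.36 under the threshold (adjusted p = 0.00787, limma). *Nrp1*, a neuropilin, was the highest partner at 830 ± 122 TPM (SD, n = 5) in controls against 775 ± 72.6 (SD, n = 4) at day 5. The median over the 9 at day 5 was -0.04, against -0.003 over all genes tested.

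Of 6 further genes reported as antigens in MN (*Mme*, *Fat1*, *Ncam1*, *Tgfbr3*, *Pcsk6* and *Ndnf*), 5 were tested and none was called at either day. Their median was -0.12 at day 1 and -0.16 at day 5 on the log2 scale, against -0.003 over all genes tested at each day. All 5 were negative at day 1, and 3 were negative and 2 positive at day 5. *Fat1*, a giant cadherin, had 82.4 ± 6.07 TPM (SD, n = 5) in controls against 72.3 ± 13.9 (SD, n = 4) at day 5. *Tgfbr3*, a TGF-beta coreceptor, had 75.6 ± 3.67 TPM (SD, n = 5) in controls against 66.0 ± 3.92 (SD, n = 4) at day 5 (log2 fold change -0.16, adjusted p = 0.155, limma).

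For each tested antigen gene, the 3 genes with the most similar pattern over the 13 libraries were found by Pearson correlation of log2(scaled TPM + 0.5). These are descriptions over libraries that share groups and cell content. For *Thsd7a* they were *Sh3bgrl2* (r = 0.956), the heparan sulfate sulfatase gene *Sulf1* (r = 0.955) and the polarity gene *Pard3b* (r = 0.939). For *Ext2* they were *Adamtsl2* (r = 0.93), *Gpx7* (r = 0.912) and *Cntf* (r = 0.906), and for *Pla2r1* they were *Pcf11* (r = 0.899), *Klhdc8b* (r = 0.88) and *Ciz1* (r = 0.878). After the group means were removed, r was 0.875 to 0.9 for the *Thsd7a* neighbours, 0.832 to 0.877 for those of *Pla2r1* and 0.598 to 0.705 for those of *Ext2*. These values come from the same libraries by which the neighbours were picked, so they are no separate check of the similarity. The highest r that unrelated genes would reach by chance, when picked from all tested genes, was not tested. No r in this paragraph is therefore set against chance. The nearest genes of *Sema3b* were *Rnf13*, *Aplp1* and *Poc1a* (r = 0.867 to 0.877). Those of *Pcdh7* were *Fasn*, *Pcdhb16* and *Nt5dc2* (r = 0.84 to 0.873). *Htra1* was nearest to *Mrps31*, *Zbtb8a* and *Ube2w* (r = 0.85 to 0.886), and *Ext1* to *Mad2l1bp*, *Tmsb15b2* and *Slc25a20* (r = 0.883 to 0.892).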

How the data were processed

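Total RNA of isolated mouse glomeruli was sequenced in 13 libraries. The deposited values are TPM per gene symbol, made by the authors with FastQC 0.11.9, Trimmomatic 0.39 and kallisto 0.46.2 on GRCm39. How transcripts were summed to genes is not given in the sources used here. The authors' DESeq2 analysis of counts was not used here. TPM summed to 989774 to 996064 per library, and read depth is unknown.

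Each library's TPM was divided by a median-of-ratios factor (0.954 to 1.04) over the 15772 genes above 0 in every library. log2(scaled TPM + 0.5) of genes that reached 1 TPM in 4 or more libraries was fitted in limma 3.58.1 (R 4.3.3) with 1 mean per group and an intensity trend, and p-values were adjusted by Benjamini-Hochberg over all tested genes. Groups came from the sample labels. The *Thsd7a* ratio was tested by exact permutation of 126 splits. On simulated data for day 5 against control with 14322 genes, 172 of 200 changed genes were called, 95% of those changed by 2 and 77% of those changed by 1 on the log2 scale, with 6 unchanged genes called. Figures used matplotlib 3.10.9 (Python 3.11.15). Replicate numbers were not used to pair the samples in the main fit. Of 12 same-number pairs, 0 had deviations correlated above 0.1, a limit set by choice that cannot show the samples to be unpaired.

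The antigen genes were given in every library. Further antigens, paralogs and partners were named where called or among the 2 highest of a list in controls, and similar genes were the 3 with the highest correlation. The members and lists were chosen with earlier results of these data known. Not every marker gene is reported here by name. *Kirrel1* was read under its table name, *Kirrel*. Alternatives were other pseudocounts, scalings, filters, fits, covariates and the removal of each library.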

Additional observations from a re-analysis of the deposited data

Results flagged for a closer look

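Of 29 groups of values of the antigen genes examined, 7 held a library that stood apart from the rest of its group by Dixon's criterion. Chance flags about 1 in 20 groups where values are normally distributed, which was not tested for these TPM. For *Nell1* the flag was fixed, because the other libraries of its group were all at 0. The count of 7 is therefore not set against that rate. In control replicate 2, *Ntng1* had 1.53 TPM against 0.108 to 0.202 in the other controls, and *Sema3b* had 23.7 TPM against 32.4 to 34.3. That library also had the lowest summed podocyte markers (7595 TPM) and tubule markers (394 TPM), and their part in these values was not tested. *Ext1* had 26.5 TPM in control replicate 5, against 20.2 to 21.5 in the others. *Pla2r1* had 55.8 TPM in day 5 replicate 3, against 48.1 to 49.4. *Cntn1* had 0.371 TPM in the same library, against 0.132 to 0.170. *Nell1* was above 0 only in control replicate 4, at 0.0289 TPM, and in day 5 replicate 1, at 0.0138 TPM.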

How the results depend on the processing

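*Thsd7a* was called lower at day 5 in all 13 fits that each left out 1 library (log2 fold change -0.94 to -0.70) and under all 11 other settings (-0.82 to -0.52), and no antigen gene was called at day 1 or between the days under any of them. With the adjusted p alone, 2 antigen genes passed at day 5, *Thsd7a* and *Ext2*, as did 6.12% of all genes tested. On that measure *Ext2* passed in 8 of the 13 fits that each left out 1 library and under 7 of the 11 other settings. With the replicate block, *Thsd7a* had -0.71 at day 5 (adjusted p = 0.0233, limma), no call of an antigen gene changed, and 149, 348 and 331 genes were called at day 1, at day 5 and between the days. Only the controls have a replicate 5, so in that fit control replicate 5 in effect did not bear on the group differences. The block and the loss of that library are therefore mixed in these counts. The *Thsd7a* ratio to podocyte markers at day 1 lay between -0.38 and -0.27 with 1 library left out. Among values that were not called, *Htra1* at day 1 changed sign with the replicate block (0.010) and the podocyte covariate (0.075), and lay between -0.0791 and 0.0271 with 1 library left out. *Pla2r1* between the days changed sign with unscaled TPM (0.0043) and lay between -0.0580 and 0.0724 with 1 library left out. With the tubule covariate, sign changes were seen at day 1 for *Pla2r1* (0.032), *Sema3b* (-0.095), *Pcdh7* (-0.017) and *Ext1* (-0.13), and between the days for *Thsd7a* (0.085). The cause of these changes was not tested. In the main fit *Pcsk6* had 0.39 at day 5 and was not called (adjusted p = 0.0881, limma). With the podocyte covariate *Pcsk6* was called at day 5 (0.58, adjusted p = 0.00106, limma), whereas *Plce1* (-0.47), *Ntng2* (-0.39) and *Plxna3* (adjusted p = 0.0627, limma) were not. *Ntng2* also missed the fold threshold with a pseudocount of 1, the replicate block and the tubule covariate (-0.4997, -0.47 and -0.49).

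Over all genes, the 13 calls at day 1 became 2 with the compared groups alone or the tubule covariate, 6 without a filter, 7 without the trend, 81 with the podocyte covariate and 3 to 218 with 1 library left out, 218 without control replicate 5. The 460 at day 5 stayed between 326 and 484 while both thresholds were kept, and were 876 by adjusted p alone. The 259 between the days were 101 with the tubule covariate, 153 where each library had to reach 1 TPM, 414 with the compared groups alone and 150 to 437 with 1 library left out. *Pcdh7* could not be tested under the filter on every library. Without a filter, *Ntng1*, *Cntn1* and *Nell1* had adjusted p from 0.648 to 1 (limma). Depth is unknown, so no limit of detection is given for them.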
